A study of Mus musculus with 11 samples.

Results

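The genes described here make cholesterol or regulate sterol levels. The set has 28 members named from the textbook pathway: 7 that lead from acetyl-CoA to farnesyl diphosphate, 11 that lead from farnesyl diphosphate through squalene to cholesterol, 5 that control the sterol-responsive transcription factors called SREBPs, 4 for sterol transport and the liver X receptor (LXR), and the phosphatidate phosphatase Lpin1. Probe sets that the platform annotation gives exactly 1 member symbol were used, and the brightest of these by mean log2 level stood for its gene. This gave values for 27 of the 28 members among 18193 genes in all. Acat2, an acetyl-CoA thiolase, is not analysed here because no probe set carried its symbol alone.

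The samples were RNA from colon of adult C57BL/6 mice, measured on Affymetrix whole-genome mouse arrays. Control colon (n = 3) was labelled as taken before imatinib, and the other samples came from mice given imatinib, an inhibitor of the tyrosine kinases Abl, Kit and the PDGF receptors, for 3 h (n = 4) or 12 h (n = 4). The growth protocol in the labels, worded alike for all samples, speaks instead of colon isolated once imatinib had been given. The controls are taken here as untreated on their sample names and source, and every comparison with control rests on that reading. The labels speak of an injection but give no dose, site of injection, sex or hour of the day, no transgene or deletion, and no group given vehicle for 3 h or 12 h, so imatinib cannot be told apart from handling or time of day. The labels number the samples without saying that each number was a separate mouse, so p-values cover only the scatter among these preparations, which may be partly technical. In whole tissue a smaller number of cells of a type and less RNA per cell cannot be told apart.

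Cholesterol is assembled in the endoplasmic reticulum and the cytosol by a chain of enzymes that first makes isoprene units, joins them into squalene, closes squalene into lanosterol, and trims lanosterol to cholesterol. When sterols in the endoplasmic reticulum fall, the escort protein Scap carries SREBP to the Golgi, where it is cut and released to the nucleus. There SREBP acts together with the factor NF-Y on the promoters of nearly all of these enzymes, while the Insig proteins hold the complex back when sterols are high. LXR answers to oxidised sterols and drives the cholesterol exporters Abca1 and Abcg1. In the gut epithelium the pathway serves the membranes of a tissue that renews itself quickly.

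The synthesis enzymes were higher as a group at 12 h. Of the 17 measured enzymes, 15 had a higher mean at 12 h than in control, and in 14 every 12 h array lay above every control array. The median log2 change of the 17 was 0.59, against -0.01 over all genes tested. The members were chosen with earlier results of these data known, so this comparison with all genes is a description and not a test. Pmvk, Mvd, Idi1, Lss and Hsd17b7 rose by 1.53-fold to 2.14-fold and no member fell. These calls come from limma's moderated test on log2(signal + 16) with Benjamini-Hochberg adjustment over all genes and a threshold of 0.05. Over all genes, 0.786% rose and 0.846% fell in this comparison, in 6.05% every 12 h array was above every control array, and in 6.99% every one was below. Setting all arrays to 1 common median in place of the deposited scaling gave 165 genes rising and 115 falling, against 143 and 154 here, and left the enzymes' count of 15 higher means as it was. The count of 5 rising members was 0 without control replicate 1 or 2 or 12 h replicate 3, 1 without 12 h replicate 2, 2 without control replicate 3 or 12 h replicate 1, and 9 without 12 h replicate 4. It was 13 when only genes with a mean signal above 50, which all 27 members have, were tested.

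At 3 h only Hsd17b7 passed the test among the members. The enzymes' median log2 change from control was 0.14, against -0.02 over all genes, and 13 of 17 had the higher mean. In 4 enzymes every 3 h array lay above every control array, and in Ebp and Dhcr7 every 3 h array lay below. Over all genes, 1.43% rose and 1.1% fell at 3 h, 6.77% had every 3 h array above control and 8.56% had every one below, so the 2 enzymes that lay below were near the share of all genes.

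Between the time points, Mvd, Idi1, Lss and Sc5d rose and Abca1 fell at 12 h relative to 3 h. The enzymes' median log2 change was 0.34, against 0.01 over all genes, and in 5 of the 17 every 12 h array lay above every 3 h array. Over all genes, 1.99% rose and 2.08% fell in this comparison, 6.3% had every 12 h array above every 3 h array and 5.26% had every one below. Group means that stepped up from control to 3 h to 12 h were found in 12 of the 17 enzymes (70.6%), against 16.8% of all genes. Steps of any size were counted, and the log2 changes at 3 h were 0.01 for Fdps, 0.04 for Idi1, 0.05 for Mvd and 0.08 for Nsdhl. Hsd17b7, the only enzyme called at 3 h, was not among the 12. Both comparisons against control use the same 3 control arrays.

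**Figure D1:**
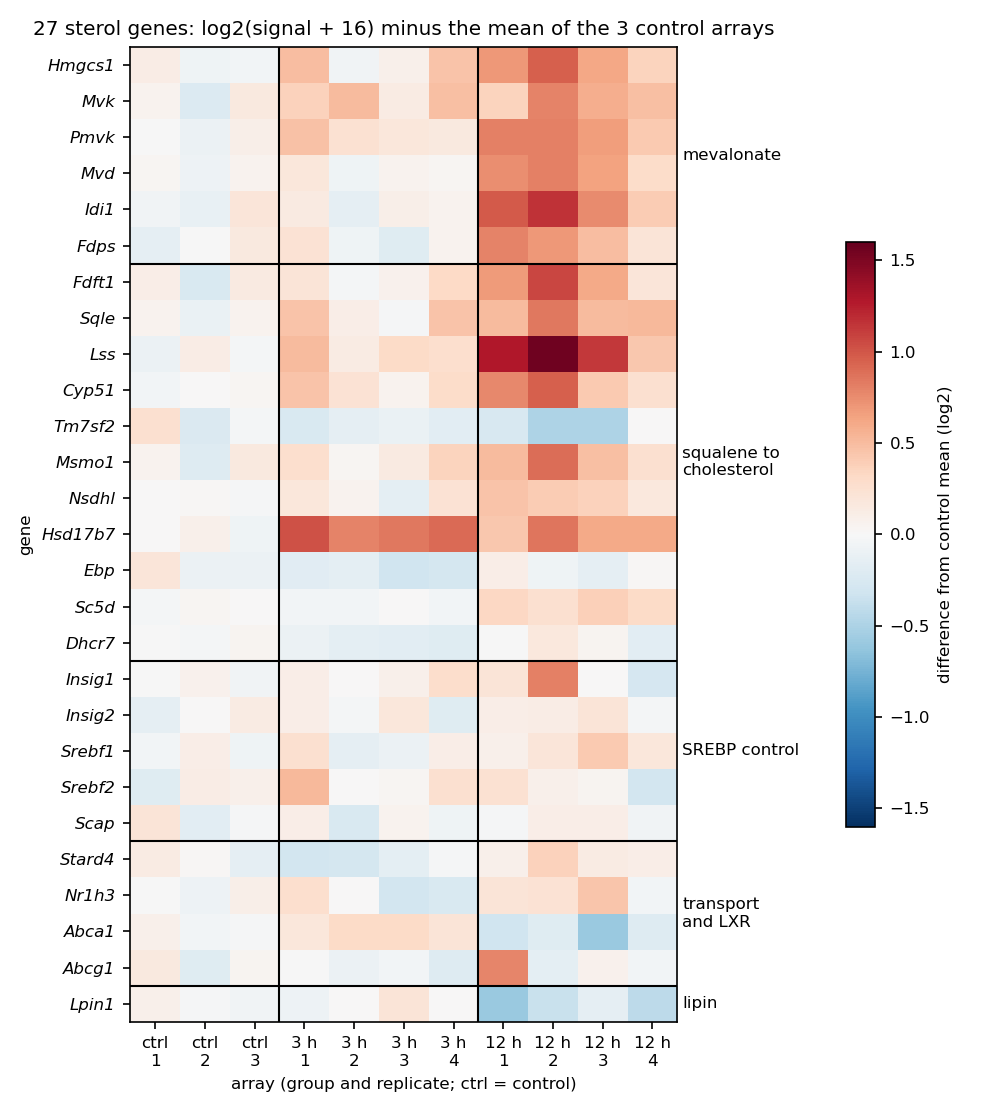
Log2(signal + 16) of the 27 measured genes (rows, in pathway order) on the 11 arrays (columns), each as a difference from the mean of the 3 control arrays; red is higher and blue is lower than that mean. The enzyme rows of the upper blocks redden at 12 h, apart from Tm7sf2, Ebp and Dhcr7, while Hsd17b7 is already red on all 4 arrays at 3 h. Among the 12 h arrays, replicate 2 is highest for 12 of the 17 enzymes and replicate 4 lowest for 11.

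Promoter stretches are shown for the 5 enzymes that rose at 12 h, for Hmgcs1, which holds the sterol regulatory element searched for, and for Tm7sf2, whose mean was lower at 12 h. They are from the RefSeq annotation of GRCm38.p6, 5′ to 3′ on the gene's strand, each at most 180 bases before the start site. Capitals mark the NF-Y box, CCAAT or its reverse complement ATTGG, and in Hmgcs1 also the element TCACNCCAC, there TCACCCCAC. The stretches are Hsd17b7 at chr1:169969206-169969285 (minus strand), Pmvk at chr3:89454391-89454450 (plus), Mvd at chr8:122443423-122443502 (minus), Lss at chr10:76531525-76531604 (plus), Idi1 at chr13:8885526-8885605 (plus), Hmgcs1 at chr13:119690171-119690230 (plus) and Tm7sf2 at chr19:6067851-6067930 (minus).
Hsd17b7: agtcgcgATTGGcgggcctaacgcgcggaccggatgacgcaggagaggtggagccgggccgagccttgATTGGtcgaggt
Pmvk: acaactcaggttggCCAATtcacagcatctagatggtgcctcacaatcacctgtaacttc
Mvd: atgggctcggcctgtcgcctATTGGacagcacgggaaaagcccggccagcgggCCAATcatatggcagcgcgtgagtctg
Lss: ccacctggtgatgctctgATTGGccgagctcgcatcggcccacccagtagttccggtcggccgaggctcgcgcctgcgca
Idi1: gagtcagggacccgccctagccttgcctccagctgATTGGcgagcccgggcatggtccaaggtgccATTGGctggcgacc
Hmgcs1: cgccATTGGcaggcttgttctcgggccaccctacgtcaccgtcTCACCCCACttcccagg
Tm7sf2: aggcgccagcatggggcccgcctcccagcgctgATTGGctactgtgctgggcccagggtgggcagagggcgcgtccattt

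The windows searched ran from 250 bases before to 50 bases after each start site, on both strands, and 23 of the 28 members had at least 1 window. An NF-Y box stood in a window of 14 of the 15 enzymes that had one (93.3%) and of 18 of the 23 members (78.3%), against 42% of the 14452 genes that had both a signal and a window. Acat2 was the enzyme without the box. The box was present in the enzymes that rose and also in Tm7sf2, Ebp and Dhcr7, which did not pass the test. TCACNCCAC was found only in Hmgcs1, 1 of 23 members (4.35%) and 1.46% of the genes with a signal. Only exact letters were counted, so a sterol regulatory element of other letters would have been missed. The E-box CACGTG stood in 6 of 23 members (26.1%), Hsd17b7, Sc5d, Dhcr7, Insig1, Scap and Abca1, against 10.2% of the genes with a signal. No match of 1 motif overlapped a match of another in these windows. Fdps, Fdft1, Sqle, Stard4 and Abcg1 had no window in the table. A match describes letters in a window, and binding was not measured.

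The first part of the pathway makes isoprene units. All 6 measured members, Hmgcs1, Mvk, Pmvk, Mvd, Idi1 and Fdps, had every 12 h array above every control array, and 3 of the 6 rose. Of all genes, 6.05% had every 12 h array above every control array and 0.786% rose. Their median log2 change was 0.64 at 12 h and 0.14 at 3 h.

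Hmgcs1, which condenses acetyl-CoA and acetoacetyl-CoA to HMG-CoA and is the brightest member, had signals of 1729.6, 1506.3 and 1530.1 on the control arrays, 2230.5, 1520.6, 1674.3 and 2179.7 at 3 h, and 2565.3, 3101.9, 2453.7 and 2044.2 at 12 h. The 12 h arrays were all above control, whereas at 3 h replicates 1 and 4 reached the level of the lowest 12 h array and replicates 2 and 3 lay near control. The log2 change at 12 h against control was 0.66 ± 0.16 (SE) and missed the threshold (limma, adjusted p = 0.0696). Its 3 other probe sets with a mean above 50 gave 0.61, 0.62 and 0.65.

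Mvk, mevalonate kinase, averaged 109 ± 16.1 at 12 h (SD, n = 4) and 69.0 ± 11.1 in control (n = 3). It averaged 94.0 ± 12.6 at 3 h (n = 4). The 3 h mean of Mvk lay nearer to 12 h than to control, with log2 changes of 0.55 at 12 h (adjusted p = 0.0696) and 0.37 at 3 h (adjusted p = 0.205) in limma.

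Pmvk, phosphomevalonate kinase, had signals of 89.3, 83.6 and 96.9 in control, 131, 109.3, 103.9 and 101.8 at 3 h, and 168, 168.6, 152 and 125.4 at 12 h. Every 3 h array stood above control, and the lowest 12 h array, replicate 4, fell within the range of the 3 h arrays. Pmvk rose 1.59-fold at 12 h against control (limma, adjusted p = 0.0214), and its log2 change was 0.67 ± 0.12 (SE).

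Mvd, the mevalonate diphosphate decarboxylase that makes isopentenyl diphosphate, had signals of 119.9, 109.9 and 122.6 in control, 134.8, 110.9, 122 and 119.7 at 3 h, and 206.8, 216.4, 192.2 and 146.8 at 12 h. The 3 h arrays overlapped control, and all 4 arrays at 12 h were above both. Mvd rose at 12 h by 0.62 ± 0.13 on the log2 scale against control (limma, adjusted p = 0.0337) and by 0.57 ± 0.12 against 3 h (adjusted p = 0.0185).

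Idi1, the isomerase that turns isopentenyl into dimethylallyl diphosphate, had signals of 610.2, 583.9 and 728.1 in control, 706.1, 577.3, 682 and 661.7 at 3 h, and 1273.4, 1435.6, 1094.3 and 850.2 at 12 h. Control and 3 h arrays overlapped, with every 12 h array above them. The log2 change at 12 h was 0.82 ± 0.16 against control (limma, adjusted p = 0.0287) and 0.79 ± 0.15 against 3 h (adjusted p = 0.0127). A second, dimmer Idi1 probe set gave 1.13 at 12 h against control.

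Fdps, which joins the units into farnesyl diphosphate, averaged 962 ± 170 at 12 h (SD, n = 4) and 647 ± 66.5 in control (n = 3). Its 3 h mean was 652 ± 82.2 (n = 4). The log2 change at 12 h was 0.55 ± 0.15 against control (limma, adjusted p = 0.0964) and 0.54 ± 0.14 against 3 h (adjusted p = 0.0513), so neither difference was called.

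The calls of this step depended on single arrays, although no direction did. With 1 array left out at a time, Pmvk lost its call at 12 h against control without control replicate 1 or 2 or 12 h replicate 2 or 3. Idi1 lost it without any 1 of these 4 or 12 h replicate 1. Mvd lost it without any 1 of the controls, 3 h replicate 3 or 4, or 12 h replicate 1, 2 or 3. The adjusted p then reached 0.101, 0.121 and 0.135, while the log2 changes stayed between 0.63 and 0.76 for Pmvk, 0.72 and 0.96 for Idi1, and 0.56 and 0.73 for Mvd. Against 3 h, Idi1 kept its call on leaving out any 1 array (adjusted p up to 0.0436) and Mvd lost it without 3 h replicate 2 or 4 or 12 h replicate 2 (up to 0.0592). An offset of 1 or a fit of only the 2 groups lost the calls of Pmvk, Mvd and Idi1 against control. Mvd lost that call with the mean of probe sets as well (limma, adjusted p = 0.0572). With the probe set of largest variance Mvd and Idi1 lost it (0.171 and 0.0787), and with the replicate block Idi1 did (0.0514).

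**Figure D2:**
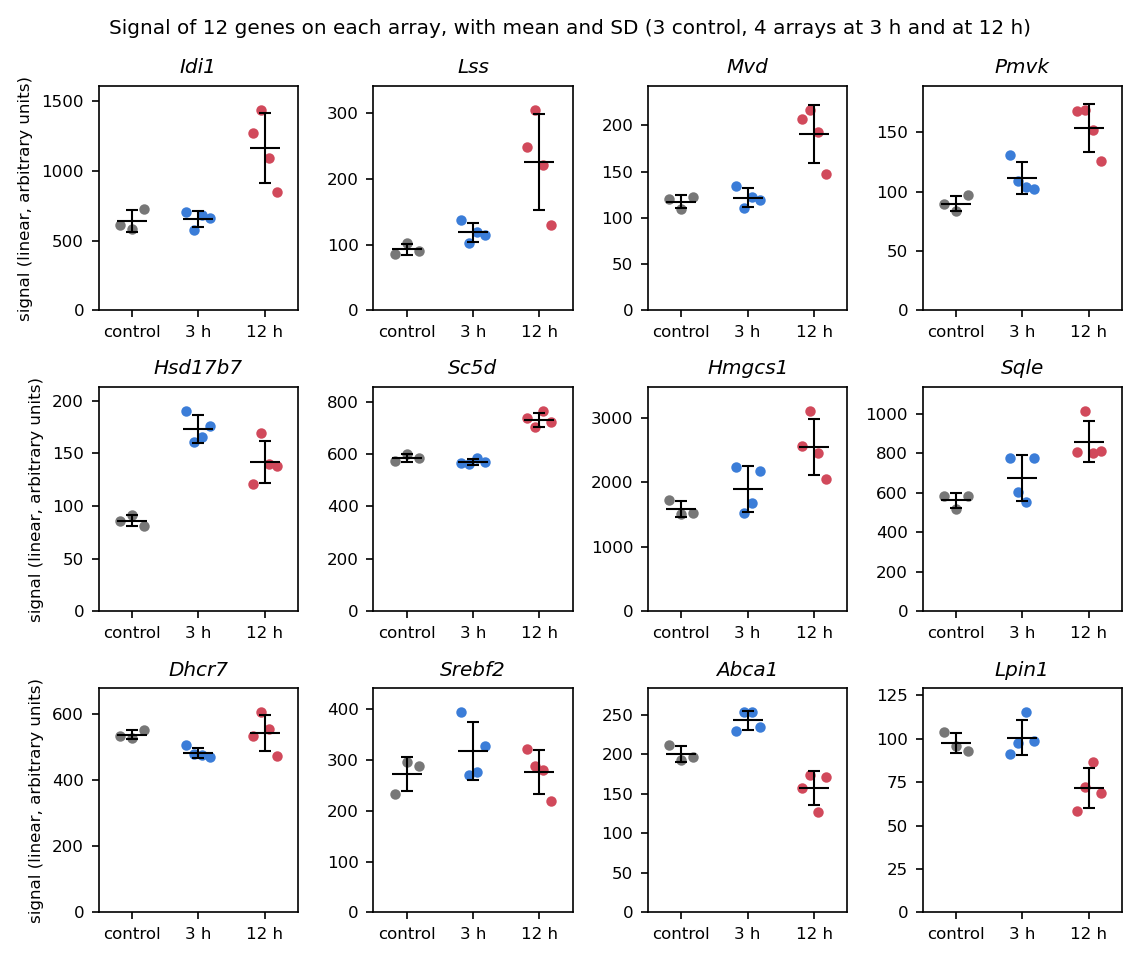
Linear signal (arbitrary units, axes from 0) of 12 of the genes on each array in control, at 3 h and at 12 h; points are arrays in replicate order, horizontal lines are means and bars are 1 SD (n = 3, 4 and 4). Idi1, Lss, Mvd and Sc5d step up between 3 h and 12 h, Hsd17b7 is highest at 3 h, and Abca1 and Lpin1 are lowest at 12 h.

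The second part runs from farnesyl diphosphate to cholesterol. Of its 11 members, 8 had every 12 h array above every control array, and Lss and Hsd17b7 rose. The shares over all genes were 6.05% and 0.786%. The median log2 change was 0.53 at 12 h and 0.14 at 3 h, and single changes at 12 h ran from -0.31 to 1.10, against 0.55 to 0.82 in the first part.

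Fdft1, squalene synthase, had signals of 487.9, 381.1 and 498.9 in control, 524.1, 442.9, 476.6 and 571.1 at 3 h, and 736.7, 968.6, 696.5 and 518.5 at 12 h. All 12 h arrays were above control, with replicate 2 high and replicate 4 close to the control range. Its log2 change of 0.64 ± 0.18 at 12 h missed the threshold (limma, adjusted p = 0.106), and another probe set of nearly equal brightness gave 0.85.

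Sqle, squalene epoxidase, the second rate-controlling enzyme of the pathway, had signals of 584.5, 518.8 and 582 in control, 774.7, 603.4, 552.7 and 777.5 at 3 h, and 805.1, 1013.6, 803.2 and 812.4 at 12 h. Every 12 h array was above every control and 3 h array, and replicate 2 stood apart from 3 nearly equal ones. The log2 change at 12 h against control was 0.59 ± 0.14 (limma, adjusted p = 0.058).

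Lss, lanosterol synthase, which closes the sterol rings, had signals of 86.3, 102.1 and 90.7 in control, 137.4, 103.2, 119.3 and 115.6 at 3 h, and 248.7, 305.2, 222.1 and 130.2 at 12 h. Every 3 h array was above control by a narrow margin, and 3 of the arrays at 12 h stood far above all others, while 12 h replicate 4 lay within the 3 h range. Lss had the largest change of any member at 12 h against control, 2.14-fold or 1.10 ± 0.21 on the log2 scale (limma, adjusted p = 0.0271). Against 3 h it rose by 0.80 ± 0.20 (adjusted p = 0.0428), with overlapping arrays. A dimmer Lss probe set gave 0.70 at 12 h against control.

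Cyp51 removes the first methyl group of lanosterol, and Msmo1 and Nsdhl act on the methyl groups that follow. Cyp51 averaged 568 ± 131 at 12 h (SD, n = 4) and 362 ± 9.36 in control (n = 3). Msmo1 averaged 1340 ± 257 at 12 h and 916 ± 117 in control, and Nsdhl 413 ± 35.4 at 12 h and 321 ± 4.97 in control. A second Msmo1 probe set, with a mean signal of 17.5, gave a log2 change of -0.14. The 12 h arrays of all 3 genes, on the probe sets used, lay above their controls, yet log2 changes of 0.60, 0.53 and 0.35 missed the threshold (limma, adjusted p = 0.0869, 0.105 and 0.152). At 3 h the arrays of Cyp51 were all above control as well (log2 change 0.26, adjusted p = 0.514).

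Hsd17b7, the ketoreductase that acts with Nsdhl, had its highest mean at 3 h on the probe set used. Its signals were 85.7, 91.5 and 80.9 in control, 190.3, 160.7, 166.1 and 175.7 at 3 h, and 121, 169.3, 139.7 and 138 at 12 h. The arrays at either time were all above control, and the 3 h arrays lay above the 12 h arrays except for 12 h replicate 2, which fell among them. Hsd17b7 rose 1.85-fold at 3 h (0.89 ± 0.11 on the log2 scale; limma, adjusted p = 0.0019) and 1.54-fold at 12 h (0.62 ± 0.11; adjusted p = 0.0214). The 3 h and 12 h values differed by -0.27 ± 0.10, which was not called (adjusted p = 0.202).

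The probe sets used for Hsd17b7, Hmgcs1 and Lss are of types that can also bind related transcripts. For Hsd17b7 the 2 next brightest probe sets gave 0.44 and 0.59 at 3 h and 0.26 and 0.74 at 12 h. Their mean signals were 88.6 and 41.5, and at 12 h against 3 h they gave -0.18 and 0.15. With the probe set of largest variance the 3 h call of the members fell to 0. The 3 h call held without any single array (adjusted p up to 0.0127), whereas the 12 h call was lost without any 1 of the controls or 12 h replicate 3 (up to 0.0825). With the mean of probe sets or the probe set of largest variance the 12 h call was lost too (limma, adjusted p = 0.0782 and 0.172). An offset of 1, the replicate block or a fit of only the 2 groups also lost it (0.0517, 0.0654 and 0.0877). Lss lost its call against control without any 1 control or 12 h replicate 1, 2 or 3 (up to 0.108), and against 3 h without any 1 array other than 12 h replicate 4 (up to 0.115). With the mean of probe sets the Lss change against control was 0.48 and not called (limma, adjusted p = 0.156). An offset of 1 or a fit of only the 2 groups also lost that call (0.0713 and 0.101). The Lss call against 3 h was lost under the same settings.

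Sc5d, lathosterol oxidase, near the end of the pathway, had signals of 571.8, 599.5 and 583.8 in control, 563.8, 563.1, 586 and 568.3 at 3 h, and 737.6, 701.2, 763.7 and 721.5 at 12 h. Arrays of a group lay close together, and every 12 h array stood above the other 7. Sc5d rose at 12 h against 3 h by 0.35 ± 0.08 (limma, adjusted p = 0.0246), and against control the change of 0.31 ± 0.08 was not called (adjusted p = 0.0824). The call against 3 h was lost without any 1 of the 3 h arrays or 12 h replicate 1 or 3 (up to 0.0704). It was also lost with the probe set of largest variance (limma, adjusted p = 0.446) or the replicate block (0.0768). The second Sc5d probe set, with a mean signal of 106, gave -0.38 at 3 h and 0.12 at 12 h against control. At 12 h against 3 h it gave 0.49.

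Tm7sf2, Ebp and Dhcr7, the exceptions, are a sterol reductase that acts after Cyp51, a sterol isomerase and the reductase of the last step. Tm7sf2 averaged 180 ± 33.3 at 12 h and 226 ± 41.9 in control, a log2 change of -0.31 (limma, adjusted p = 0.328) with overlapping arrays. Ebp averaged 728 ± 52.9 at 12 h and 743 ± 89.1 in control, and Dhcr7 542 ± 54.5 at 12 h and 538 ± 13.5 in control (SD, n = 4 at 12 h and 3 in control). For Dhcr7 the 95% interval of the log2 change was -0.20 to 0.22, and for Ebp -0.25 to 0.21. Both intervals lie below the median change of the enzymes. At 3 h the arrays of Ebp and Dhcr7 were all below control, with log2 changes of -0.23 and -0.15 (adjusted p = 0.323 and 0.539).

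**Figure D3:**
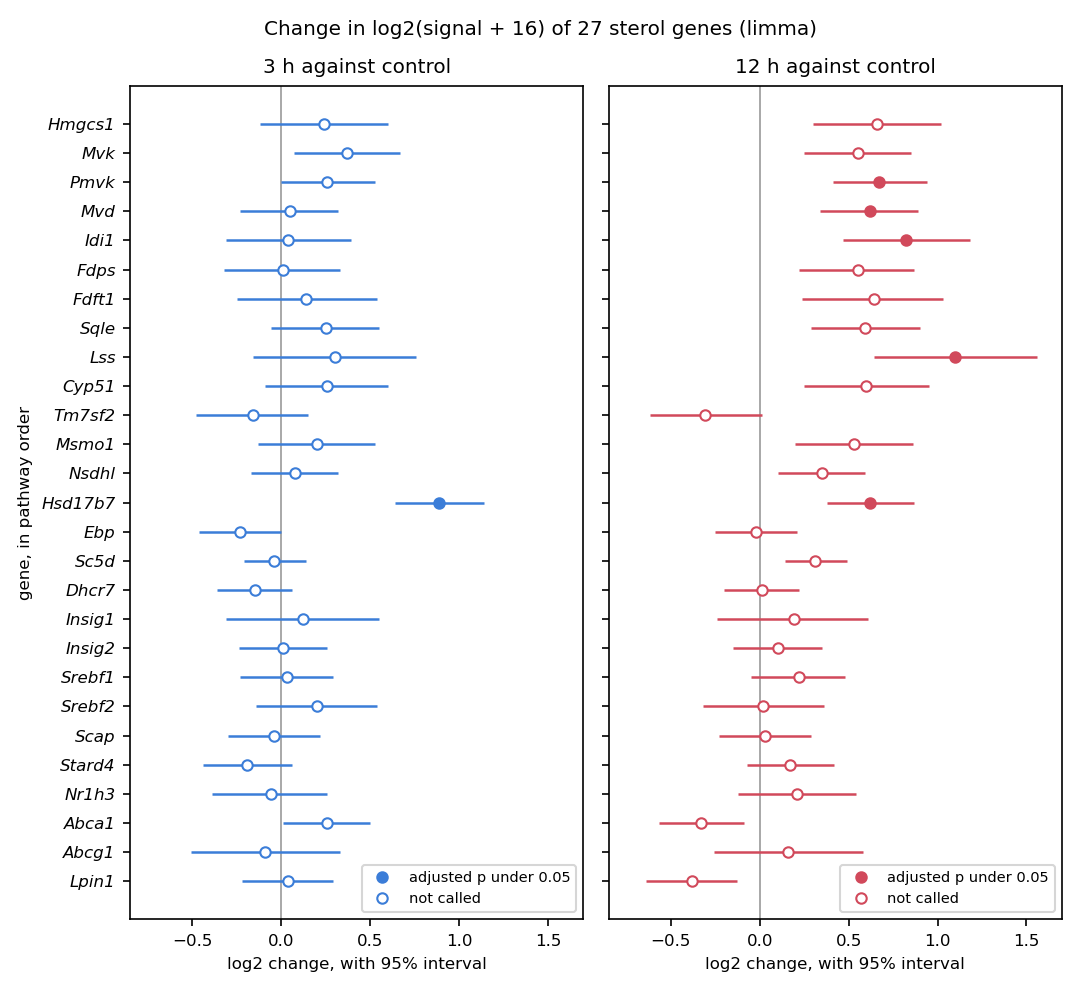
Log2 change of each of the 27 genes in pathway order (top to bottom) at 3 h against control (left) and at 12 h against control (right), with 95% intervals from limma; filled points passed the threshold. At 3 h only Hsd17b7 is filled, and at 12 h Pmvk, Mvd, Idi1, Lss and Hsd17b7 are, with the intervals of most other enzymes above 0.

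None of the 5 genes of SREBP control passed the test in any comparison. Their median log2 change was 0.03 at 3 h and 0.10 at 12 h against control, and 0.07 at 12 h against 3 h. An unadjusted limma p under 0.05 was reached by 0 of the 5 in each comparison. Over all genes it was reached by 15% at 3 h against control, 15.8% at 12 h against control and 17.8% at 12 h against 3 h, so a count of 0 among 5 genes is close to the share of all genes.

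Srebf2 encodes the SREBP that mainly drives the cholesterol enzymes. It had signals of 233.6, 295.5 and 287.8 in control, 394.4, 270, 277.1 and 328.5 at 3 h, and 322.4, 287.6, 279.8 and 218.6 at 12 h. The groups overlapped, with 3 h replicate 1 highest and 12 h replicate 4 lowest, and the log2 change at 12 h was 0.02 with a 95% interval of -0.32 to 0.36. Srebf1, whose products drive fatty acid genes as well, averaged 245 ± 26.9 at 12 h and 208 ± 15.1 in control (SD, n = 4 and 3), a change of 0.22 (limma, adjusted p = 0.434).

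Insig1 is itself a target of SREBP and keeps Scap in the endoplasmic reticulum. Its signals were 255.6, 269.7 and 245.6 in control, 279.4, 257.9, 272.8 and 316 at 3 h, and 298.4, 459.2, 257.3 and 210.7 at 12 h. The 12 h arrays spread on both sides of control, replicate 2 far above it and replicate 4 below it, with a log2 change of 0.19 (95% interval -0.24 to 0.61). Insig2, its paralog, and Scap, the escort, had log2 differences of 0.10 and 0.03, with overlapping arrays.

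Among transport genes, Abca1, the exporter that loads cholesterol onto lipoproteins, had signals of 212.3, 193.2 and 197.1 in control, 230.1, 253.5, 253.4 and 235.2 at 3 h, and 157.6, 174.1, 126.7 and 171.6 at 12 h. The 3 groups did not overlap: 3 h was highest and 12 h lowest. Abca1 fell at 12 h against 3 h by 0.59 ± 0.10 on the log2 scale (limma, adjusted p = 0.00893), a call kept without any single array (up to 0.0311). Against control the changes of 0.26 at 3 h and -0.33 at 12 h were not called (adjusted p = 0.303 and 0.169). Its 2 other probe sets, with mean signals of 27.9 and 11, gave -0.13 and 0.12 at 12 h against 3 h, and the mean over the probe sets was not called.

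Stard4, a carrier of free sterol in the cytosol and a known SREBP target, had signals of 907.4, 839.8 and 745.6 in control, 671.4, 680.1, 739.3 and 818.8 at 3 h, and 878.2, 1076.6, 906.8 and 898.1 at 12 h. Its 12 h arrays were all above 3 h but overlapped control, with log2 changes of 0.36 (limma, adjusted p = 0.0833) and 0.17 (adjusted p = 0.52). The 2 other Stard4 probe sets gave 0.40 and 0.34 at 12 h against 3 h.

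Nr1h3, the gene of LXR alpha, was the dimmest member with a mean of 59.5, and Abcg1 exports cholesterol to mature lipoproteins. Nr1h3 averaged 67.8 ± 11.5 at 12 h and 56.0 ± 4.38 in control, and Abcg1 95.7 ± 36.7 at 12 h and 80.9 ± 11.7 in control (SD, n = 4 and 3). The Abcg1 mean at 12 h rested on replicate 1, at 149.9 against 70.2 to 85.1 on the other 12 h arrays. The log2 changes of 0.21 and 0.16 were not called in limma (adjusted p = 0.571 and 0.765).

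Lpin1 encodes a phosphatidate phosphatase that in mouse cells also acts in the nucleus, where it restrains SREBP. Its signals were 103.7, 96 and 92.9 in control, 91.2, 97.6, 115.3 and 98.4 at 3 h, and 58.6, 72.4, 86.5 and 68.6 at 12 h. Every 12 h array was below every other array. The log2 change was -0.38 ± 0.12 against control (limma, adjusted p = 0.134) and -0.42 ± 0.11 against 3 h (adjusted p = 0.0552), neither past the threshold, and the dimmer probe set gave -0.15 and -0.19.

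The enzymes varied together from array to array. Among the 12 h arrays, replicate 2 was highest for 12 of the 17 enzymes and replicate 4 lowest for 11. After group means were subtracted, the correlation over the 11 arrays had a median of 0.48 over 136 pairs of enzymes, 98 of them above 0, against a median of -0.01 between an enzyme and any other gene. Fdft1 followed the mean of the other enzymes most closely (r = 0.92), and Tm7sf2 (-0.53), Sc5d (-0.49) and Ebp (-0.04) did not follow it. Among the genes of SREBP control, the correlation with the enzyme mean was 0.80 for Insig1, 0.68 for Srebf2 and 0.48 for Scap. It was 0.22 for Srebf1 and 0.12 for Insig2. The share of all genes that reach such values with the enzyme mean was not computed. These correlations describe arrays that share their RNA, scaling and tissue composition, and no test was made.

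Other lists of lipid genes were counted on the same arrays. Among all genes, 1.43% rose and 1.1% fell at 3 h against control, and 0.786% and 0.846% at 12 h against control. At 12 h against 3 h the shares were 1.99% and 2.08%. Of 20 measured genes of fatty acid synthesis, the branch driven mainly by Srebf1, 0 were called at 12 h against control by limma (6, against 15.8% of all genes, at an unadjusted p under 0.05), with a median log2 change of 0.08. At 3 h the desaturase Scd1 rose 2.29-fold (limma, adjusted p = 0.00735), and at 12 h against 3 h it fell by 0.85 while Scd2 and Mid1ip1 rose by 0.73 and 0.48. The isoprenoid branch, which uses farnesyl diphosphate for protein prenylation, dolichol and coenzyme Q, had 0 of 11 called in the limma comparisons of 3 h and 12 h with control and of 12 h with 3 h (1, 2 and 1 at an unadjusted p under 0.05, against 15%, 15.8% and 17.8% of all genes). SREBP processing and sterol-driven degradation likewise had 0 of 11 called (1, 1 and 0 at the same unadjusted p).

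Of 14 measured genes of sterol uptake, transfer and esterification, Stard5 rose by 0.57 and the oxysterol-binding Osbpl2 fell by 0.45 at 3 h, and 0 were called at 12 h against control (limma; 4, against 15.8% of all genes, at an unadjusted p under 0.05). At 12 h against 3 h Osbpl2, Gramd1b and Stard3 rose by 0.58, 0.67 and 0.37. The LXR list was drawn up from genes taken as targets and Nr1h2, which encodes an LXR itself. Of its 8 measured genes, Mylip, whose product degrades lipoprotein receptors, fell by 0.44 at 3 h. At 12 h against 3 h Mylip rose by 0.42 and the sterol exporter Abcg5 fell by 1.00. Of 11 PPAR alpha targets, Creb3l3 rose by 1.14 and Plin2 fell by 0.59 at 3 h, and Creb3l3 rose by 0.95 at 12 h against control. At 12 h against 3 h Plin2 rose by 0.46 (limma, adjusted p = 0.0469). Limma called 1.43% of all genes as rising and 1.1% as falling at 3 h against control. The shares were 0.786% and 0.846% at 12 h against control, and 1.99% and 2.08% at 12 h against 3 h.

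**Figure D4:**
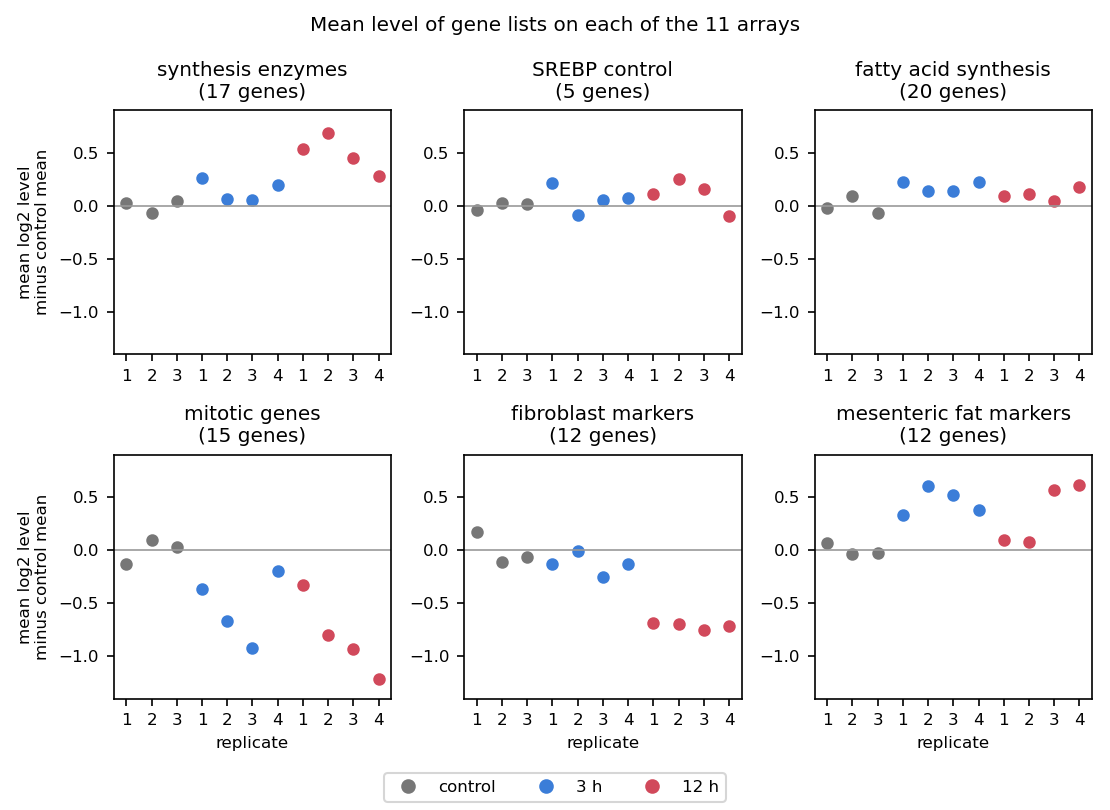
Mean log2(signal + 16) of 6 gene lists on each of the 11 arrays, as a difference from the mean of the 3 control arrays, all panels on 1 scale; points are arrays in replicate order for control, 3 h and 12 h. The 17 synthesis enzymes are above control on all 4 arrays at 12 h, the SREBP control list overlaps control at both times (log2 levels of 8.01 to 8.07 in control, 7.96 to 8.26 at 3 h and 7.95 to 8.30 at 12 h), the fatty acid list is above control at 3 h (8.17 to 8.25 at 3 h, 7.96 to 8.12 in control), and the mitotic and fibroblast lists are below control at 12 h.

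Lists for cell types and physiology were measured on the same arrays, and their part in the enzymes' change was not tested. Over all genes, 0.786% rose and 0.846% fell at 12 h against control in limma. In 6.99% every 12 h array was below every control array, and 15.8% had an unadjusted limma p under 0.05. At 3 h against control 1.43% rose and 1.1% fell. Colon markers were bright throughout. The 14 absorptive colonocyte markers summed to 35240 to 46409 at 12 h and 38216 to 43344 in control, and the 8 goblet markers to 32162 to 51949 at 12 h and 37256 to 52448 in control. Among the absorptive markers, Slc51a, a bile acid transporter subunit, and Guca2b, a gut peptide, rose 5.75-fold and 1.74-fold at 12 h (limma, adjusted p = 0.00575 and 0.0387), and Slc51a and Alpi rose 6.6-fold and 1.95-fold at 3 h (adjusted p = 0.00199 and 0.0497). No goblet marker was called at 12 h (0 of 8 also at an unadjusted limma p under 0.05). Of 15 measured mitotic genes 5 fell at 12 h, and their mean log2 level was 6.16 to 7.05 at 12 h against 7.25 to 7.47 in control. Of 12 fibroblast markers 7 fell, with levels of 8.40 to 8.47 at 12 h and 9.05 to 9.33 in control. Of 10 smooth muscle markers 0 were called at 12 h against control by limma (8 at an unadjusted p under 0.05), all 10 had the lower mean at 12 h, and their median log2 change was -0.52. Their levels were 9.37 to 10.18 at 12 h and 10.07 to 10.32 in control, and Actg2 and Des fell at 12 h against 3 h by 0.76 and 0.88. Of 11 measured macrophage markers Csf1r fell at 12 h against control, by 0.53, and 4 had every 12 h array below control, with levels of 7.22 to 7.35 at 12 h and 7.28 to 7.70 in control and Itgam averaging a signal below 16. Cx3cr1 fell by 1.37 at 3 h against control and rose by 1.26 at 12 h against 3 h. Of 12 measured fat markers only Fabp4 rose, with levels of 6.45 to 6.99 at 12 h and 6.33 to 6.44 in control, and Cidea, Lep and Adig averaged a signal below 16. Of 9 hepatocyte markers 0 were called by limma at 12 h (1 at an unadjusted p under 0.05), their signals summed to 440 to 1097 at 12 h and 873 to 1080 in control, and Fgb, Fga, Ahsg and Hpx averaged below 16.

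Of 12 clock genes 4 rose and 2 fell at 12 h against control, where 0.786% and 0.846% of all genes did. The log2 changes were 2.28 for Per2 and -2.05 for Npas2. Of 12 glucocorticoid-induced genes 11 rose at 3 h and 3 at 12 h, where 1.43% and 0.786% of all genes did. Hour of day, stress and imatinib cannot be told apart here, for the enzymes as for these lists.

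Transcripts of pancreatic acinar cells, 12 measured markers, differed widely between arrays of every group. They summed to 2851 to 112517 in control, 2382 to 28618 at 3 h and 3213 to 86135 at 12 h, and were high on control replicate 1, 3 h replicate 3 and 12 h replicates 1, 3 and 4. On these 5 arrays the enzymes' mean log2 level was 8.48 in control, 8.51 at 3 h, and 8.99, 8.90 and 8.73 at 12 h. On the other 6 it was 8.38 and 8.50 in control, between 8.52 and 8.71 at 3 h, and 9.14 on 12 h replicate 2. Without the 5 arrays, which leaves 1 array at 12 h whose spread is taken from the other groups, no member was called and the enzymes' median log2 change at 12 h against control was 0.82, with 16 of 17 higher.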

How the data were processed

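The authors deposited 1 linear intensity per probe set for each of 11 arrays, made by a method that is not given in the sources used here. With 2% trimmed from either end, the mean value of each array was 100. The table held 45101 probe sets, of which 34945 had 1 gene symbol after symbols were matched through Entrez numbers to RefSeq's GRCm38.p6, 932 had several and 9160 none, apart from 64 control probe sets. Each gene took the probe set with the highest mean of log2(signal + 16).

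Fold changes are on the log2(signal + 16) scale and understate changes of dim genes. limma 3.58.1 in R 4.3.3 was fitted to all 11 arrays with a mean per group (8 residual degrees of freedom), in 2-sided tests with Benjamini-Hochberg adjustment over 18193 genes. The number of arrays limits the precision. After group means were subtracted, arrays of the same number had correlations of -0.21 to 0.31 over all genes. Arrays of different numbers were not compared in this way. The numbers were not used as pairs in the main fit. The fit was tested on simulated data.

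The members and gene lists were chosen with earlier results of these data known. All members are accounted for, those called or leading a step array by array. Of other lists, up to 4 called genes with the smallest p were named. Settings varied were the scaling, the offset, a filter on signal, the probe set rule, array weights, the prior, the arrays in the fit, the replicate block and the threshold. The tables and figures were made with Python 3.11.15.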

Additional observations from a re-analysis of the deposited data

Results flagged for a closer look

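In 54 groups of 4 arrays, 1 for each member at 3 h and at 12 h, the gap between the most extreme array and its nearest neighbour was compared with the range of the group, and chance alone marks about 1 group in 20. There were 2 such groups, both at 12 h and both replicate 2. The Sqle signal on this array was 1013.6, with the other 12 h arrays between 803.2 and 812.4. The Stard4 signal was 1076.6, with the others between 878.2 and 906.8. The same array was the highest of its group for 12 of the 17 enzymes, and it was not among the arrays high in pancreatic transcripts.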

How the results depend on the processing

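No member called in the comparisons above changed direction under any alternative. Msmo1 at 12 h against control, past the threshold only above a signal of 50 (adjusted p = 0.0472) or with a trended, robust limma prior (0.0483), had a log2 change of -0.14 with its dim probe set of largest variance. Calls moved with the settings, and the cause was not tested. Counts are given first for 3 h and then for 12 h against control, and last for 12 h against 3 h. Genes called, 462, 297 and 741, were 229, 81 and 435 with an offset of 1 and 277, 183 and 466 with the replicate block. They were 127, 53 and 235 at a threshold of 0.01, and 878, 690 and 1275 at 0.1. Leaving out 1 array gave 161 to 520, 64 to 455 and 395 to 758. At 12 h against control the count was also 495 with an offset of 64, 631 over genes with a mean signal above 50, 169 with the probe set of largest variance, 536 with a trended, robust prior and 62 with only the 2 groups fitted. The 5 members rising at 12 h against control were 0 with an offset of 1, with only the 2 groups fitted or at 0.01. They were 2 with the mean of probe sets or the largest variance, 3 with the replicate block, 11 at 0.1, and 13 above a signal of 50 or with the trended prior. Leaving out 1 array gave 0 to 9. The 4 rising at 12 h against 3 h were 0 at 0.01, 2 with the largest variance or the block, and 7 with an offset of 64, above a signal of 50, with the trended prior or at 0.1, with 1 to 7 on leaving out 1 array. The 1 falling there was 0 with the mean of probe sets and 2 with equal medians, quantile normalization, an offset of 64, a signal above 50, array weights, the trended prior, without 12 h replicate 3 or at 0.1. The 1 rising at 3 h was 0 with the largest variance. Without the 5 arrays high in pancreatic transcripts, an alternative chosen after seeing the data, 80, 8 and 16 genes and 0 members were called.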

Other observations

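Group means that rose stepwise, by steps of any size, were found in 15 of the 27 measured members (55.6%), against 16.8% of all genes. Other probe sets of a member did not always share its value: the second Sc5d probe set gave -0.38 at 3 h against control where the one used gave -0.04, and the second Srebf2 probe set gave -0.16 at 12 h against control where the one used gave 0.02. Among the 3 h arrays replicate 1 was highest for 9 of the 17 enzymes and replicate 2 lowest for 8, and among the controls replicate 3 was highest for 9 and replicate 2 lowest for 11.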
